A study of Mus musculus with 6 samples.

Results

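Messenger RNA of 9 transcription factors was followed in regulatory T cells (Tregs) sorted from mouse tumors: Prdm1, Maf, Irf4, Gata3, Rora, Tbx21, Bcl6, Ahr and Nfil3. They were taken by symbol as effector and helper-lineage factors. All 9 were among the 23420 genes of the count table, and all 9 were among the 10352 genes that passed the filter on low counts. The Tregs came from T11 tumors, a transplanted claudin-low model of triple-negative breast cancer, grown in Foxp3-GFP mice of the BALB/c strain, in which GFP marks cells that express Foxp3. All mice received 10000 tumor cells, and tumors were taken at 150 mm2. In one group the antibody J43 against PD-1 was injected into the peritoneum at 200 µg, 2 times per week (libraries 4, 5 and 6), and the other group was untreated (libraries 1, 2 and 3). Sorting for GFP gave Tregs of over 90% purity, per the labels. The labels do not say which mice or how many gave each library, so each p-value reflects only how far these libraries differ among themselves, which may be technical.

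As background, Tregs that have met antigen in tissue switch from a resting to an effector state. Blimp-1 (Prdm1), c-Maf (Maf) and IRF4 are known drivers of that state and of IL-10 production in T cells. Tregs in tissue can also take up the master factors of helper lineages: T-bet (Tbx21) of Th1 cells, GATA3 and RORα (Rora) in Th2-type and tissue-resident cells, and BCL6 of follicular cells. AHR senses small ligands from diet, microbes and metabolism, and NFIL3 is a bZIP repressor that links cytokine signals with the circadian clock.

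Library totals ran from 4766533 to 5219249 counts after anti-PD-1 and from 5470816 to 6686774 untreated. The ribosomal RNA gene Rn45s took 21.4% to 25.1% of counts after anti-PD-1 and 21.9% to 22.3% untreated. All 8 Treg and helper T cell markers were detected in every library, with Foxp3 at 544, 563 and 462 CPM (the count as a share of the TMM-scaled library total) after anti-PD-1 and at 461, 438 and 454 CPM untreated. Dimension 1 of a multidimensional scaling (35.7% of the variance) put untreated library 1 apart, at 2.40, with the remaining 5 between -0.67 and -0.39.

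Between anti-PD-1 and untreated Tregs, 7 of the 9 factors had a log2 fold change below 0, as did 49.9% of all tested genes. The largest differences were in Maf, Prdm1, Nfil3, Ahr and Tbx21, all near -0.5 (log2, anti-PD-1 over untreated), while Irf4, Gata3, Rora and Bcl6 lay closer to 0. No factor passed edgeR's quasi-likelihood test at a Benjamini-Hochberg adjusted p of 0.05 over all genes, where 0.0290% of tested genes did (3 genes, all higher: Klf2, Jun and Rhob). DESeq2, which called 0.785% of the genes to which it gave an adjusted p, and limma-voom, which called 0.0483%, called no factor either, and DESeq2 gave Tbx21 no adjusted p. At an unadjusted p under 0.05 in edgeR, 4 factors were lower (Maf, Prdm1, Ahr and Nfil3) and 0 higher, against 4.08% of all tested genes lower and 4.23% higher (8.31% in either direction). In 3 factors (Maf, Ahr and Nfil3) every anti-PD-1 library lay below every untreated library, which held for 6.44% of all tested genes, and in 0 factors did every one lie above, which held for 7.18% (13.6% in either direction). The median log2 fold change of the 9 was -0.45, beside 0.0016 over all tested genes. Since the factors were chosen with results of these data known, these counts are a description and carry no test of their own. In RNA from a bulk of sorted cells, fewer cells that express a factor and less RNA per cell cannot be told apart.

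**Figure D1:**
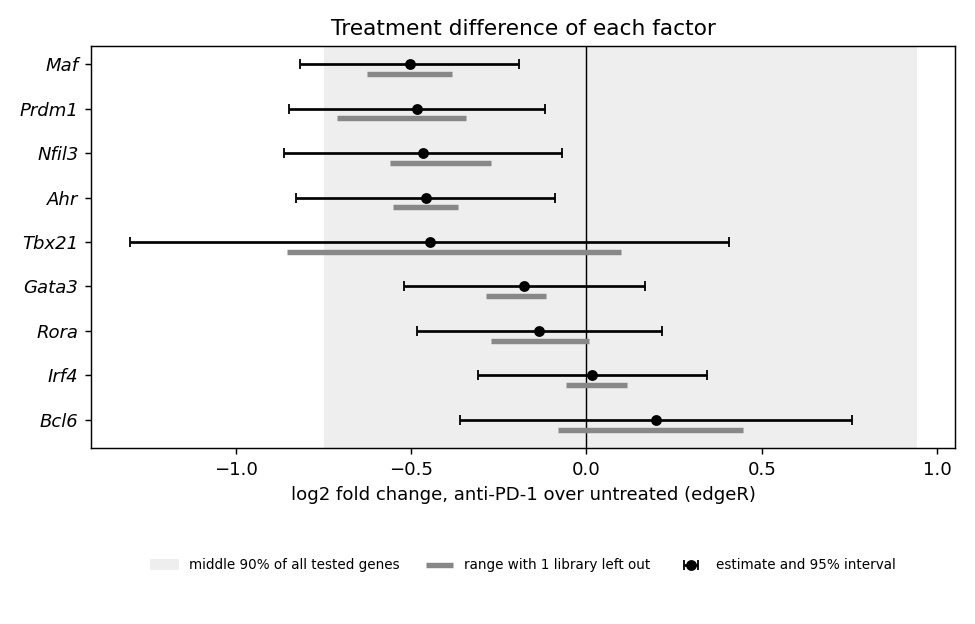
Log2 fold change of each factor (x axis, anti-PD-1 over untreated, edgeR) with its 95% interval, above the range over fits that left out 1 library (grey bar); the shaded band holds the middle 90% of all tested genes. The intervals of Maf, Prdm1, Nfil3 and Ahr lie below 0, those of the other 5 factors span 0, and all 9 estimates lie inside the band.

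Among the drivers of the effector state, Maf was the most abundant by counts and had the smallest p of the 9. Maf, a large MAF-family bZIP factor that activates Il10 in T cells, lies on chromosome 8 (mm10, 115703253 to 115706894, minus strand), where 1 exon was counted. It stood at 377, 434 and 307 CPM after anti-PD-1 and at 544, 551 and 490 CPM untreated, from 1486 to 3391 counts per library. The highest anti-PD-1 library lay below the lowest untreated one. The means were 373 ± 63.8 and 529 ± 33.3 CPM (SD, n = 3 per group), a log2 fold change of -0.50 ± 0.15 (SE, 95% interval -0.82 to -0.19, edgeR adjusted p = 0.414). With 1 library left out, it ran from -0.63 to -0.38.

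Prdm1 encodes Blimp-1, a zinc finger repressor that ends proliferative programs in plasma cells and effector lymphocytes. The gene lies on chromosome 10 (mm10, 44437175 to 44458687, minus strand). It had 212, 151 and 131 CPM in anti-PD-1 libraries, against 210, 248 and 233 CPM in untreated libraries. Anti-PD-1 library 4 was level with untreated library 1, so the groups touched, while libraries 5 and 6 lay below every untreated one. Its mean was 164 ± 42.0 CPM after anti-PD-1 and 231 ± 18.8 CPM untreated (SD, n = 3 per group), a log2 fold change of -0.48 ± 0.18 (SE, interval -0.85 to -0.12, edgeR adjusted p = 0.481). Leaving out anti-PD-1 library 4 gave -0.71, and leaving out library 6 of that group gave -0.34. The 250 bases before its RefSeq start (GRCm38.p6, chr10:44458749-44458998, minus strand) are shown for a match to TGANTCA, an AP-1 pattern with its central base left free. No other window searched for the factors holds it. The match reads TGAATCA, with A at the free base, so it is AP-1-like and not shown to be a site of Jun. Jun, of the AP-1 family, was 1 of the 3 genes called. Capitals mark, from 5′ to 3′, an AHR core motif, a KLF CACCC motif that contains another AHR core, and this AP-1-like match.
Prdm1: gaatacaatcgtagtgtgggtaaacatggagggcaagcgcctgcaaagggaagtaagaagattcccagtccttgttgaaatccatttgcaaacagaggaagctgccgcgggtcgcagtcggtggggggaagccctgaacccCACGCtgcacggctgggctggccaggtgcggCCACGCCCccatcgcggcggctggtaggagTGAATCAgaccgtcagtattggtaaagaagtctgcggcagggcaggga

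In a search of such windows on both strands, the loose AP-1 pattern (TGANTCA) was in 6.75% of the 32851 windows of the reference. Among the 8 windows of the factors it was only in that of Prdm1. The AHR core (GCGTG) was in 28.2% of all windows and in those of Prdm1, Irf4 and Rora. The KLF motif (CCNCNCCC) was in 45.9% of all windows and in 6 of the 8. Of the other motifs searched, the c-Maf half-site (TGCTGA) was in the Gata3 window and in 16.1% of all, and the ROR half-site (AGGTCA) in the Nfil3 window and in 14.0% of all. The Blimp-1 motif GTGAAAG, the paired IRF motif (GAAA, any 2 bases, GAAA), the GATA motif AGATAA, the T-box half-site GGTGTGA and the D-box TTANGTAA were in 3.57%, 2.98%, 9.99%, 3.33% and 2.06% of all windows and in none of the 8. A match describes letters and does not show binding, and a link between Jun and Prdm1 was not tested. Maf and Ahr had no window in the reference table.

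Irf4, an interferon regulatory factor that rises with T cell receptor signal strength and pairs with BATF, had a log2 fold change near 0. The gene lies on chromosome 13 (mm10, 30749258 to 30766927, plus strand). It had 227, 240 and 186 CPM after anti-PD-1 and 214, 228 and 204 CPM untreated. The untreated values lay inside the range of the treated ones. Its log2 fold change was 0.02 ± 0.16 (SE, 95% interval -0.31 to 0.34, edgeR adjusted p = 0.985), and its sign turned without anti-PD-1 library 4 or 5 or untreated library 3. The difference between Irf4 and Maf or Prdm1 was not tested.

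**Figure D2:**
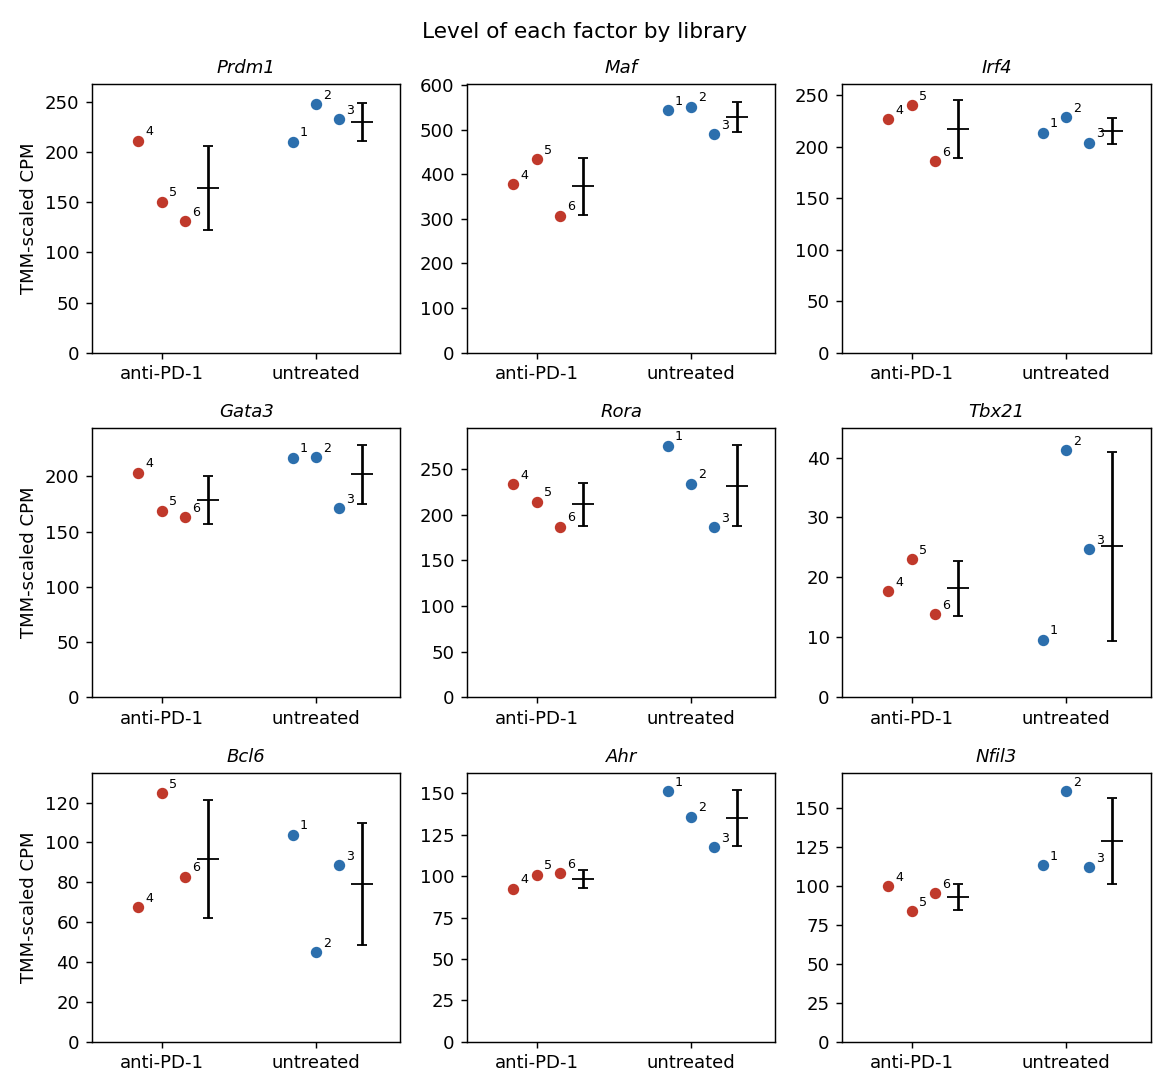
TMM-scaled CPM (y axis, from 0) of each factor in the 3 anti-PD-1 and the 3 untreated libraries; each point is 1 library with its number, and the black mark is the mean with its SD. The groups stand apart in Maf, Ahr and Nfil3, touch in Prdm1 and overlap in the other 5.

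The Th2-type and tissue factors had small differences. Gata3 encodes the zinc finger factor of Th2 cells and lies on chromosome 2 (mm10, 9857078 to 9878600, minus strand). It stood at 203, 169 and 163 CPM after anti-PD-1 and at 217, 218 and 171 CPM untreated. The groups overlapped, with anti-PD-1 library 4 above untreated library 3, and the log2 fold change was -0.18 ± 0.17 (SE, interval -0.52 to 0.17, edgeR adjusted p = 0.819). It was -0.28 without anti-PD-1 library 4, -0.29 without untreated library 3, -0.11 when anti-PD-1 library 6 was dropped and -0.12 when untreated library 2 was dropped. Rora encodes a nuclear receptor that acts in type 2 innate lymphoid cells, Th17 cells and skin Tregs. The gene spans chromosome 9 from 68653802 to 69379028 (mm10, plus strand). It had 233, 214 and 186 CPM after anti-PD-1 and 275, 234 and 186 CPM untreated, so that the lowest library of each group was level. Its log2 fold change was -0.13 ± 0.17 (SE, interval -0.48 to 0.21, edgeR adjusted p = 0.865), and 0.0086 without untreated library 1, and dropping untreated library 3 gave -0.27. Dropping anti-PD-1 library 4 gave -0.21, and dropping library 6 gave -0.052.

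Tbx21, the T-box factor of Th1 cells, was the scarcest of the 9 and the most uneven between untreated libraries. It lies on chromosome 11 (mm10, 97098007 to 97115331, minus strand). It had 17.7, 23.0 and 13.8 CPM after anti-PD-1 and 9.63, 41.2 and 24.7 CPM untreated. The untreated libraries spanned 4.28-fold and enclosed all treated ones. That spread exceeded counting error, since untreated library 1 held 60 counts (95% Poisson interval 7.35 to 12.4 CPM) and untreated library 2 held 230 (36.0 to 46.9 CPM). These intervals cover counting error only. The log2 fold change was -0.45 ± 0.41 (SE, interval -1.30 to 0.41, edgeR adjusted p = 0.817). It was -0.85 without untreated library 1 and 0.099 without untreated library 2.

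Bcl6, a zinc finger repressor of follicular helper and follicular regulatory T cells and a mutual antagonist of Blimp-1, had the highest fold change of the 9. The gene lies on chromosome 16 (mm10, 23965052 to 23988612, minus strand). It stood at 67.6, 125 and 82.8 CPM after anti-PD-1 and at 104, 44.8 and 88.6 CPM untreated. The groups overlapped widely, and the log2 fold change was 0.20 ± 0.27 (SE, interval -0.36 to 0.76, edgeR adjusted p = 0.875). It was -0.082 without anti-PD-1 library 5 and -0.071 without untreated library 2. The 250 bases before both RefSeq starts (GRCm38.p6, minus strand, chr16:23988853-23989102 and chr16:23981284-23981533) are shown because BCL6 is known to repress its own gene, and both hold the motif that BCL6 shares with STAT factors. Capitals mark that motif (TTCNNNGAA, in 7.02% of all windows), 1 match in the window of start 1 and 3 in that of start 2.
Bcl6 start 1: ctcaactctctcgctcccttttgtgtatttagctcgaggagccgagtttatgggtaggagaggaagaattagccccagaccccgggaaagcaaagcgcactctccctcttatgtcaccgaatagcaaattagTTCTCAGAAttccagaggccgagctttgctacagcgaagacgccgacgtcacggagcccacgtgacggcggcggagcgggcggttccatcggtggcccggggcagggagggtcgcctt
Bcl6 start 2: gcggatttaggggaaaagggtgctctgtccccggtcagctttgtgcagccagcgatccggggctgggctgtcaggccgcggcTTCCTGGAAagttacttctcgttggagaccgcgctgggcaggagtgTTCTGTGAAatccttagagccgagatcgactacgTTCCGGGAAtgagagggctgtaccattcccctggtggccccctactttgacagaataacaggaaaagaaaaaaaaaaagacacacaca

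Set against Prdm1 per length, Bcl6 stood at 0.50, 1.30 and 0.99 of the Prdm1 level in anti-PD-1 libraries 4, 5 and 6, and at 0.77, 0.28 and 0.59 in untreated libraries 1, 2 and 3. Anti-PD-1 libraries 5 and 6 were above all untreated libraries, and library 4 was below 2 of them. Bcl6 and Tbx21 had opposite orders in the untreated libraries: library 1 was highest in Bcl6 and lowest in Tbx21, and library 2 the reverse. No test was made of either pattern.

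Ahr, the ligand-activated bHLH-PAS factor that Tregs of gut and tumor can use, lies on chromosome 12 (mm10, 35497979 to 35534989, minus strand). It had 92.3, 101 and 102 CPM after anti-PD-1 and 151, 136 and 117 CPM untreated. All treated libraries were lower and close to each other, with means of 98.3 ± 5.20 and 135 ± 16.9 CPM (SD, n = 3 per group). The log2 fold change was -0.46 ± 0.18 (SE, interval -0.83 to -0.09, edgeR adjusted p = 0.522). Of 8 AHR target genes, only Tiparp was expressed enough to test, at 156, 138 and 105 CPM after anti-PD-1 and 178, 98.0 and 126 CPM untreated (log2 fold change -0.01 ± 0.21). The detoxifying enzyme genes Cyp1a2 and Cyp1b1 had 0 counts in all 6 libraries, Cyp1a1 had 1 count in all, and the repressor gene Ahrr had 0 to 2 per library. Nqo1, a quinone reductase gene too scarce to test, had 1, 0 and 2 counts after anti-PD-1 and 15, 2 and 11 counts untreated, so that the groups met at 2. At this depth a count of 0 does not show absence. The AHR partner gene Arnt stood at 95.4, 82.5 and 92.3 CPM after anti-PD-1 and 132, 100.3 and 91.6 CPM untreated (log2 fold change -0.26 ± 0.19, edgeR adjusted p = 0.754).

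Nfil3 is induced by cytokines in many lymphocytes and competes with the PAR bZIP activators DBP, TEF and HLF at D-box motifs. It lies on chromosome 13 (mm10, 52967209 to 52981039, minus strand). It stood at 99.7, 83.8 and 95.4 CPM after anti-PD-1 and at 114, 161 and 112 CPM untreated. Every treated library was lower than every untreated one, and untreated library 2 was the highest. The log2 fold change was -0.47 ± 0.19 (SE, interval -0.86 to -0.07, edgeR adjusted p = 0.551), and -0.27 without untreated library 2. Dbp, Tef and Hlf had log2 fold changes of 0.16 ± 0.62, 0.27 ± 0.49 and -0.11 ± 0.42, at means of 5.12, 12.9 and 17.1 CPM after anti-PD-1 and 4.62, 10.8 and 18.5 CPM untreated.

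**Figure D3:**
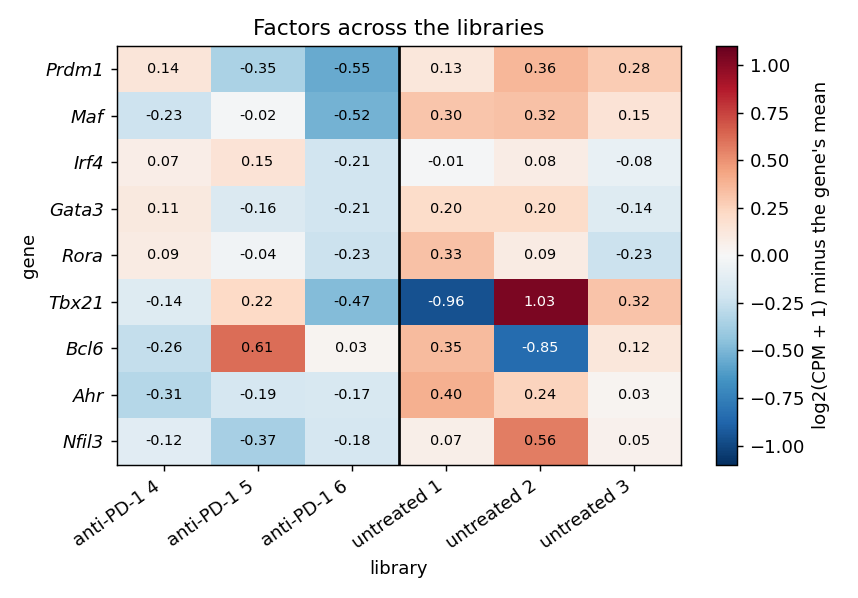
Each factor (rows) in each library (columns), as log2(CPM + 1) minus the gene's mean over the 6 libraries; red is above and blue below that mean. Maf, Ahr and Nfil3 are below their mean in all 3 anti-PD-1 libraries and above it in all 3 untreated ones, and the values farthest from 0 are Tbx21 in untreated libraries 2 and 1 (1.03 and -0.96) and Bcl6 in untreated library 2 (-0.85).

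The order of libraries within a group was counted over the factors, without a count over all tested genes to set beside it. Within the treated group, library 6 was the lowest in 6 factors (Prdm1, Maf, Irf4, Gata3, Rora and Tbx21) and the highest in Ahr. Within the untreated group, library 2 was the highest in 6 (Prdm1, Maf, Irf4, Gata3, Tbx21 and Nfil3), and library 3 was the lowest in 6. The 9 factors together took 1529, 1540 and 1267 CPM after anti-PD-1 and 1839, 1861 and 1628 CPM untreated, and Maf made up 24.2% to 28.2% of these sums after anti-PD-1 and 29.6% to 30.1% untreated. The coefficient of variation between untreated libraries ran from 5.77% (Irf4) to 62.7% (Tbx21), beside a median of 19.8% over the 7212 tested genes with a mean of at least 10 CPM. After anti-PD-1 it ran from 5.29% (Ahr) to 32.2% (Bcl6), beside a median of 16.7%.

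Levels of different genes were compared per kilobase of counted exon. By the mean of the 6 libraries the order was Rora, Maf, Gata3, Nfil3, Irf4, Prdm1, Bcl6, Ahr and Tbx21, in FPKM (CPM divided by the counted exon length in kilobases). Rora averaged 128 ± 14.2 FPKM after anti-PD-1 and 141 ± 27.0 FPKM untreated, and Maf 102 ± 17.5 and 145 ± 9.13 FPKM, with overlapping ranges (SD, n = 3 per group). Rora was above Maf in all 3 treated libraries and in 1 of 3 untreated ones. Gata3, Nfil3, Irf4 and Prdm1 came next, at means from 32.0 to 55.5 FPKM after anti-PD-1 and from 44.8 to 64.7 FPKM untreated. Neighbours among these 4 overlapped within each group, with 2 exceptions. After anti-PD-1, Gata3 (50.7 to 63.3 FPKM) lay just above Nfil3 (42.1 to 50.1 FPKM), and in untreated libraries Nfil3 (56.3 to 80.7 FPKM) lay above Irf4 (43.5 to 48.8 FPKM). Bcl6 averaged 27.9 ± 8.99 FPKM after anti-PD-1 and 24.1 ± 9.35 FPKM untreated, and overlapped Prdm1 only after anti-PD-1. Ahr, at 17.9 ± 0.95 FPKM after anti-PD-1 and 24.6 ± 3.08 FPKM untreated, overlapped Bcl6 only in the untreated group. Tbx21 came last at 7.12 ± 1.81 and 9.86 ± 6.19 FPKM, though in untreated library 2 it exceeded Bcl6, at 16.1 against 13.6 FPKM. Rora ranked 343rd and Tbx21 5237th by mean FPKM among the 10352 tested genes. The counted exons covered 12.6% of the exon bases that GENCODE M21 gives Rora, 44.2% of those of Maf and 49.0% of those of Bcl6, against 80.8% or more for the other 6, so this order depends on the annotation used for counting.

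**Figure D4:**
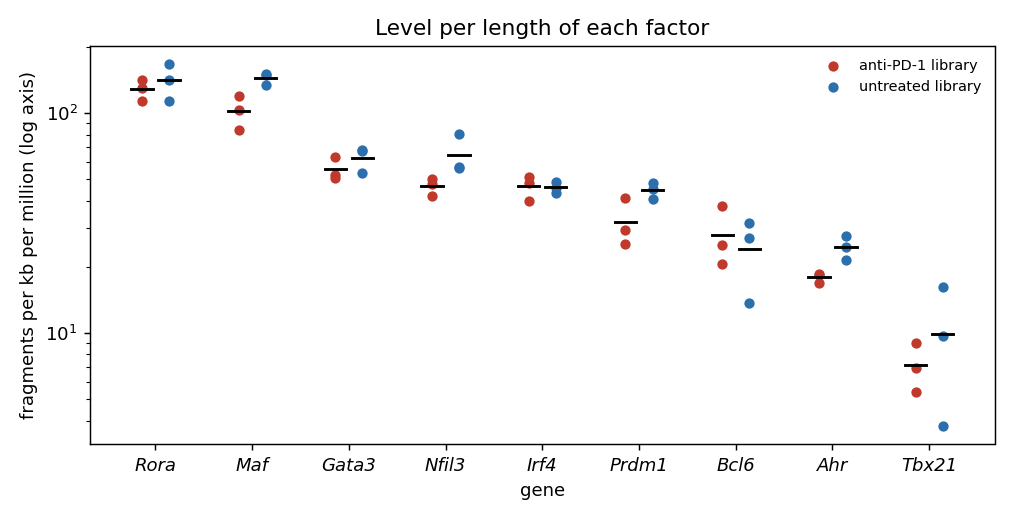
FPKM (log axis) of each factor, in order of the mean over all 6 libraries; points are libraries and bars are group means. Rora and Maf lie above 84 in every library, and Tbx21 lies below 17 in every library.

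Genes tied to the factors were read from lists of relatives, partners and programs. The list put together for Blimp-1 and c-Maf also holds genes of effector Tregs in general. How far these factors drive each gene was not tested. All 16 tested members lay below 0, with a median log2 fold change of -0.56, beside 0.0016 over all tested genes. At an unadjusted p under 0.05, 11 of the 16 were lower and 0 higher, where 4.08% of all tested genes were lower and 4.23% higher, and 49.9% lay below 0. None passed edgeR over all genes, and DESeq2 called Ccr2 (adjusted p = 0.0427). The chemokine receptor gene Ccr2 had 487, 411 and 231 CPM after anti-PD-1 and 678, 708 and 570 CPM untreated, with no overlap (log2 fold change -0.79 ± 0.20, edgeR adjusted p = 0.255). The costimulatory receptor gene Tnfrsf9 stood at -0.64 ± 0.17 (log2 fold change), the immunoregulator Fgl2 at -0.49 ± 0.15 and the checkpoint gene Ctla4 at -0.41 ± 0.13. Il10, which Blimp-1 and c-Maf are known to activate, had 21.1, 29.5 and 13.6 CPM after anti-PD-1 and 28.2, 45.5 and 30.4 CPM untreated (log2 fold change -0.69 ± 0.32, edgeR adjusted p = 0.587). The list was drawn up with earlier results of these data known, so it is no independent evidence of its direction.

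In the T-bet and Th1 list, 7 of 13 tested genes lay below 0 and 6 above, with a median of -0.17. At an unadjusted p under 0.05 in edgeR, 1 was lower and 1 higher, against 4.08% and 4.23% of all tested genes. None passed edgeR over all genes. DESeq2, which called 0.785% of the genes to which it gave an adjusted p, called the lower of these, which is not named here. Cxcr3, a chemokine receptor gene that T-bet is known to activate, had higher values, at 108, 121 and 89.8 CPM after anti-PD-1 and 35.9, 73.2 and 94.5 CPM untreated, with overlap at the bounds (log2 fold change 0.66 ± 0.25, edgeR adjusted p = 0.506). Ifng, the Th1 cytokine gene, stood at -0.48 ± 0.36 (log2 fold change). In the GATA3, Th2 and tissue Treg list, 7 of 8 tested genes lay below 0 with a median of -0.24, where 49.9% of all tested genes lay below 0. Of these 7, Ccr4 and Areg were close to 0, at -0.013 ± 0.24 and -0.015 ± 0.20 (log2 fold change). At an unadjusted p under 0.05 in edgeR, 1 gene of this list was lower and 1 higher. The inhibitory receptor gene Klrg1 (55.1, 44.4 and 49.6 CPM after anti-PD-1 and 75.1, 88.3 and 105 CPM untreated) was called by DESeq2 (adjusted p = 0.0262) and not by edgeR (adjusted p = 0.227). The IL-4 receptor gene Il4ra was the 1 above 0 (0.44 ± 0.16), while the IL-33 receptor gene Il1rl1 and Pparg stood at -0.30 ± 0.22 and -0.81 ± 0.75. The type 2 cytokine genes Il4 and Il5 had 0 counts in all libraries.

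The BCL6 and follicular list lay the other way, with 13 of 14 tested genes above 0 and a median of 0.30. At an unadjusted p under 0.05, 3 were higher (Slamf6, Lef1 and Selplg) and 0 lower, against 4.23% and 4.08% of all tested genes, and none passed edgeR or DESeq2 over all genes. These 3 do not mark follicular cells alone. Slamf6 and Lef1 are also high in resting and stem-like T cells. Selplg encodes a selectin ligand that follicular helper cells are known to lower. Ccr7 and Gpr183, at 0.68 ± 0.50 and 0.33 ± 0.24 (log2 fold change), are also genes that such cells are known to lower. The count above 0 is therefore no measure of a follicular program. Ccr7 had 174, 150 and 467 CPM after anti-PD-1 and 207, 159 and 127 CPM untreated, so only anti-PD-1 library 6 was above the untreated range. Without that library the median of the whole list was 0.11. Slamf6 had 103, 76.5 and 69.4 CPM after anti-PD-1 and 53.7, 58.6 and 49.9 CPM untreated (log2 fold change 0.62 ± 0.21, edgeR adjusted p = 0.460). Lef1 stood at 0.56 ± 0.20 and Selplg at 0.40 ± 0.16 (log2 fold change). Tcf7, a factor of resting and follicular T cells, had 25.1, 55.6 and 147 CPM after anti-PD-1 and 7.06, 13.6 and 37.2 CPM untreated (1.97 ± 0.87, edgeR adjusted p = 0.636). The follicle-homing receptor gene Cxcr5 stood at 0.78 ± 0.47 and Pdcd1, the exception, at -0.28 ± 0.25.

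**Figure D5:**
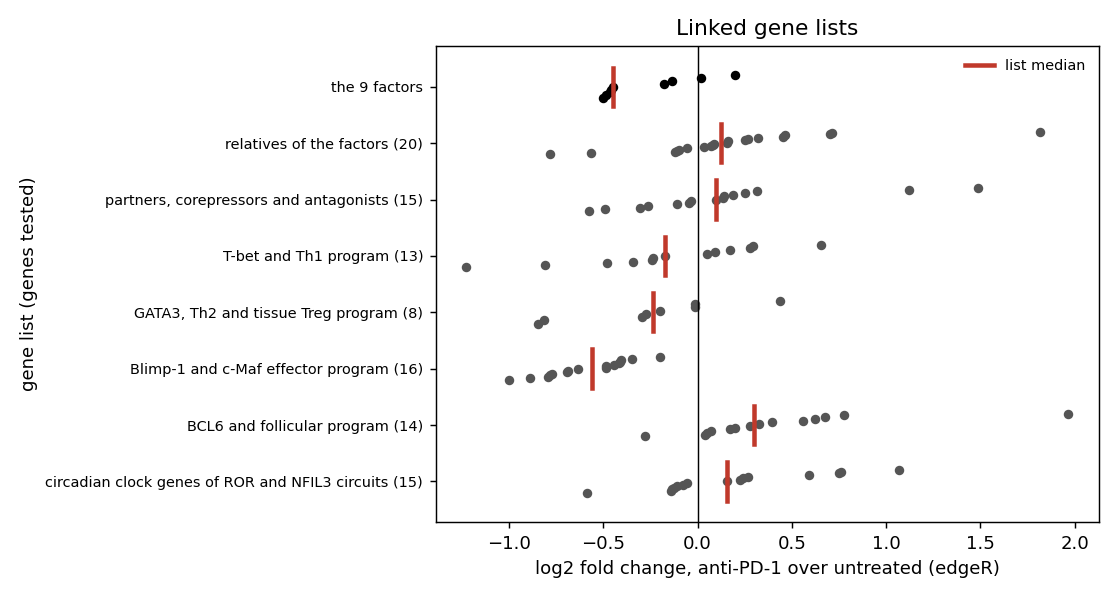
Log2 fold change (x axis, anti-PD-1 over untreated, edgeR) of every tested gene in the 9 factors and in each linked list with at least 3 tested genes; points are genes and red bars are list medians. The Blimp-1 and c-Maf list lies below 0 in all 16 genes and the BCL6 and follicular list above 0 in 13 of 14. The latter holds genes that follicular cells raise and genes that they lower.

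Partners and antagonists of the factors had mixed values, with 8 of 15 tested genes above 0 (median 0.10). Bach2, a repressor that restrains effector differentiation and opposes Blimp-1, had 30.4, 40.4 and 77.4 CPM after anti-PD-1 and 39.0, 14.7 and 13.0 CPM untreated. Untreated library 1 lay among the treated libraries (log2 fold change 1.12 ± 0.40, edgeR adjusted p = 0.485). The E-protein inhibitors differed in direction, with Id3 at 10.6, 14.1 and 21.3 CPM after anti-PD-1 and 5.62, 7.34 and 3.38 CPM untreated (1.49 ± 0.49), and Id2 at 159, 120 and 195 CPM and 244, 222 and 199 CPM (-0.49 ± 0.18). EdgeR's adjusted p was 0.449 for Id3 and 0.481 for Id2. The Runx factor gene Runx1 stood at 0.32 ± 0.16, and Batf, the IRF4 partner, at 23.2, 22.4 and 40.7 CPM after anti-PD-1 and 51.5, 31.0 and 44.8 CPM untreated (-0.57 ± 0.29, edgeR adjusted p = 0.628).

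Among relatives of the factors, 14 of 20 tested genes lay above 0 (median 0.12). Irf8, the closest relative of Irf4, had 25.8, 33.2 and 40.9 CPM after anti-PD-1 and 61.8, 41.9 and 42.9 CPM untreated (-0.57 ± 0.27). Irf3 and Prdm10 stood at 0.70 ± 0.37 and 0.72 ± 0.40. Gata1, at 4.18, 2.70 and 8.26 CPM after anti-PD-1 and 0, 1.79 and 2.54 CPM untreated, was near the limit of detection. Eomes, a T-box relative of Tbx21, was scarce, at means of 2.65 CPM after anti-PD-1 and 4.62 CPM untreated. No relative passed edgeR, with adjusted p from 0.584 upward. In the Th17 list 6 of 8 genes were too scarce to test, and Ccr6 and Stat3 stood at 0.54 ± 0.29 and -0.11 ± 0.14. Clock genes tied to the ROR and NFIL3 circuits were 8 above and 7 below 0 (median 0.16), none at an unadjusted p under 0.05 in edgeR. Their smallest p values belonged to Per1 (0.24 ± 0.16), the REV-ERB gene Nr1d1 (1.07 ± 0.80), Gm129 (0.76 ± 0.57) and Per2 (0.75 ± 0.84), and the ROR target Arntl stood at -0.14 ± 0.24.

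The genes whose profile over the 6 libraries was nearest to that of Maf, by root mean square difference of log2(CPM + 1) around each gene's mean, were Lrrfip2 (0.0713), Adam17 (0.0755), Akap9 (0.0904), Alcam (0.0933) and Zfp68 (0.0986). The protease gene Adam17 had 215, 220 and 156 CPM after anti-PD-1 and 301, 271 and 256 CPM untreated, with library 6 the lowest as in Maf. This is a ranking of 10352 genes over 6 libraries and carries no test.

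Several factors are also made by other cells that a sort could hold, such as plasma cells (Prdm1, Irf4), macrophages (Maf), B cells (Bcl6) and type 2 innate lymphoid cells (Gata3, Rora). The summed markers of plasma cells were at 0.41 to 9.31 CPM after anti-PD-1 and 0.32 to 10.3 CPM untreated, with Tnfrsf17 at 0 (1 of 5 genes), and those of B cells at 6.40 to 24.3 and 10.0 to 13.5 CPM. Macrophage and monocyte markers summed to 10.9 to 16.0 CPM after anti-PD-1 and 7.22 to 13.0 CPM untreated, with C1qa at 0 (1 of 10). Markers of type 2 innate lymphoid and mast cells summed to 13.6 to 22.2 CPM and 7.44 to 16.1 CPM, with Il5 at 0 (1 of 6). These sums were almost all Kit, at 14.8, 18.5 and 13.0 CPM after anti-PD-1 and 14.3, 16.1 and 7.44 CPM untreated. CD8 T cell markers (18.8 to 51.2 and 11.1 to 31.2 CPM), NK cell markers (0.62 to 6.64 and 1.25 to 5.94 CPM), dendritic cell markers (8.67 to 15.8 and 1.97 to 16.2 CPM) and tumor and fibroblast markers (37.4 to 53.8 and 27.6 to 53.6 CPM) overlapped between treatments as well, with Klra8, Clec9a, Cd209a and Dcn at 0. Neutrophil markers were at 0 to 0.21 CPM after anti-PD-1 and 0 untreated. Treg markers summed to 6643, 6336 and 5862 CPM after anti-PD-1 and 7573, 6970 and 6968 CPM untreated, without overlap. Their members split: Ctla4, also in the Blimp-1 and c-Maf list, and Ikzf2 were lower in every anti-PD-1 library, while Foxp3 and Cd4 were higher in every one. The two-sided exact permutation p was 0.1 for the Treg list, the smallest that 3 against 3 libraries allow, and 0.3 or more for every other list. The part of these cells in the values of the factors was not tested.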

How the data were processed

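RNA of Tregs from 6 libraries (3 anti-PD-1, 3 untreated) was sequenced. The authors deposited raw counts of fragments per gene, per the file headers: featureCounts 1.5.2, gene models of mm10, read pairs counted once and by strand (setting 1), from alignments whose names contain bbmap. The library kit was NuGEN Ovation SoLo, per the labels. How duplicate reads were handled is not given in the sources used here. A spare column without a name (1) was not used. Groups and library numbers came from the labels.

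Counts were tested with edgeR 4.0.16 in R 4.3.3: filterByExpr (a count of 10, 15 in total), TMM, glmQLFit (robust), glmQLFTest, two-sided, treatment as the only term, Benjamini-Hochberg over 10352 genes at 0.05. CPM and FPKM use TMM-scaled totals and, for FPKM, the exon length in the file. Alternatives used DESeq2 1.42.0, limma-voom (limma 3.58.1), other scalings and filters, and each library left out. Removal of Rn45s and Malat1 and edgeR's older quasi-likelihood fit were added after the data were seen. Fits were tested on simulated data. For pairs of libraries, chi-square per degree of freedom was 9.71 to 30.8, so none was a copy. GENCODE M21 has antisense genes over Maf, Gata3, Rora, Bcl6 and Ahr, and no counted exon of a factor overlaps another gene of the table.

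The factors, lists and tests were chosen with earlier results of these data known. Genes named are the 9 factors, up to 4 per linked list by smallest p, and a set of direct partners and relatives. Also named are the 5 genes nearest to the factor with the smallest p. Il10, Dbp, Tef, Hlf, Cxcr5, Pdcd1, Ccr7, Gpr183, Ccr4, Areg, Kit and the genes at or near 0 were named after their values were seen. A few others within the rule are not reported here. Lists matched by symbol, 4 entries by a synonym and 1 not at all. Promoter sequences are from RefSeq (GRCm38.p6), which had windows for 7 of the 9 factors.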

Additional observations from a re-analysis of the deposited data

How the results depend on the processing

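Maf, Prdm1, Ahr, Nfil3 and Gata3 stayed below 0 under all 14 alternatives, and no factor passed an adjusted p of 0.05 under any. Over the fits that left out 1 library, the log2 fold change ran from -0.059 to 0.12 for Irf4, from -0.27 to 0.0086 for Rora, from -0.85 to 0.099 for Tbx21 and from -0.082 to 0.45 for Bcl6, which all changed sign. The number of genes called over the table was 3 of 10352, but 34 of the 4331 to which DESeq2 gave an adjusted p. With limma-voom and with upper-quartile scaling it was 5 of 10352 each. It was 52 of 14756 with no filter and 1 to 19 with 1 library left out. Of the 52, 3 were in the Blimp-1 and c-Maf list and 2 in the BCL6 and follicular list. Partners and the T-bet list held 1 each. Without untreated library 1, 19 of 10670 were called, 1 each among partners and in the T-bet and GATA3 lists. The cause of these shifts was not tested. Over the fits that left out 1 library, the list medians ran from -0.19 to 0.25 for the AHR targets (Tiparp alone), from 0.084 to 0.40 for Th17, from 0.11 to 0.43 for BCL6 and follicular genes, from -0.067 to 0.25 for clock genes, from -0.32 to -0.070 for the GATA3 list, from -0.19 to -0.049 for the T-bet list, from 0.034 to 0.18 for relatives, from 0.0090 to 0.12 for partners and from -0.59 to -0.47 for the Blimp-1 and c-Maf list. The clock median was also below 0, at -0.043, with a minimum of 5 CPM in 3 libraries. Neutrophil markers, at 0 in all untreated libraries, gave no ratio. In all, 381 of 415 values were counted as the same. Fold changes had to keep their direction and side of the threshold, and list medians had to move by less than the spread between libraries. Marker sums had to keep their direction, and numbers of genes called had to stay equal or close. Many of these numbers were 0 in the main fit and in the alternative, so the 381 is no measure of stability. No paired analysis was possible because the library numbers 1 to 3 and 4 to 6 are not shared. Counts per factor and library ran from 60 to 3391. The spread between untreated libraries exceeded counting error in Tbx21. In Ahr the 95% Poisson intervals of the anti-PD-1 libraries overlapped (84.3 to 101, 92.0 to 110 and 93.0 to 111 CPM). How far counting error set the precision of each factor was not tested.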
